A study of Mus musculus with 45 samples.

Results

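Protocadherins are the largest family of cadherin-type adhesion molecules of the brain, and the hippocampal RNA table of this mouse study held 67 of its 15897 genes from this family. They were taken as every protein-coding gene of the table whose symbol begins with Pcdh: 14 alpha, 21 beta and 21 gamma genes of the clustered kind and 11 unclustered genes. The annotation lists 70 such genes, of which 69 are protein-coding. Pcdhb1 and Pcdh12 had no row in the table, and Pcdhgb8 was left out because the annotation calls it a polymorphic pseudogene. The symbol Pcdha11 belongs to 2 annotated genes, which are told apart here by their identifiers, ENSMUSG00000007440 and ENSMUSG00000102206.

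Each clustered alpha or gamma gene begins with a variable exon of its own, which encodes the whole extracellular part, the membrane span and the start of the cytoplasmic tail, and is spliced to constant exons that all genes of that cluster share. Beta genes are made of their variable exon alone. A neuron uses a small and partly random subset of the clustered genes, the products bind the same combination on facing membranes, and this is known for letting a neuron tell its own branches from those of its neighbours. The C-type genes at the end of the alpha and gamma clusters are used by many neurons without that random choice. The unclustered genes have their own loci and include the delta protocadherins, which act in axon growth, synapse formation and cell sorting.

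The 45 female C57Bl/6J mice fell into 8 groups by genotype and diet. AwTw mice were wild-type littermates, A+ mice carried the APPswe/PS1dE9 transgenes under a mouse prion protein promoter, T+ mice carried human tau with the P301L mutation under a CaMKII promoter, which drives expression in forebrain neurons, and A+T+ mice carried both. Mice stayed on standard chow (STD) with 5% fat by weight and no added cholesterol (0%) or were changed at 7 months of age to a typical western diet (TWD) that held 35% sucrose, 21% fat by weight and cholesterol at 0.15%, and all were sacrificed at 13 months. The STD mice were 4 A+T+, 5 A+Tw, 6 AwT+ and 6 AwTw animals, and on TWD there were 6 mice of each genotype. Each library came from a separate animal. Batch 0 held 8 STD and 12 TWD mice and batch 1 held 13 STD and 12 TWD mice, with only 1 A+Tw/STD mouse in batch 0. Values are variance-stabilized read counts on a log2-like scale, in which a difference of 1 is close to a doubling for well-expressed genes and smaller than the change in reads for genes with few reads. Differences are given as TWD minus STD, or transgenic minus control, with the standard error, and p-values are from limma, adjusted by Benjamini and Hochberg's method across the 15897 genes, with calls made below 0.05.

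The A+ label was checked with genes of plaque-associated microglia. Cst7, a cystatin, lay between 8.37 and 10.27 in the 21 A+ mice and between 4.36 and 5.98 in the 24 Aw mice, and Itgax, an integrin subunit, between 6.95 and 8.27 against 4.52 to 6.28, without overlap. All 8 neuron markers and all 6 hippocampal subfield markers were in the table, with mean values per mouse of 12.32 to 13.12 and 10.79 to 11.51. In bulk tissue, fewer cells of a type and less RNA per cell cannot be told apart. The 8 choroid plexus markers varied between mice from 5.90 to 10.60 in their mean, with medians of 9.57 on STD and 9.11 on TWD. Choroid plexus is not part of the hippocampus, and these values are followed beside the results below.

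All clustered genes lie on chromosome 18 of GRCm38, on the plus strand. The alpha genes in the table span bases 36930184 to 37187661, the beta genes 37294812 to 37524479 and the gamma genes 37661793 to 37841873. Constant exons, taken as bases that belong to exons of at least 10 genes of a cluster, amount to 2860 bases in alpha and 2119 bases in gamma. They make up 48.6% to 54.9% of the longest transcript of an alpha gene and 7.1% to 45.5% of that of a gamma gene, and each of the 21 beta genes has a single-exon transcript as its longest. Short reads from constant exons do not tell which gene they came from, and the quantification divides them among the transcripts. Of all stretches of 31 bases in the longest transcript, a median of 62.65% in alpha, 47% in gamma and 12% in beta genes also occur in another protocadherin, against 0% in the unclustered genes. Values of single alpha and gamma genes therefore rest on part of their transcript and are uncertain to that extent.

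Levels are compared between genes after subtracting the log2 of the length of the longest transcript in kb. On this scale the median gene of the table lay at 6.52, and 10 of the 67 protocadherins lay above it. The highest was the gamma C-type gene Pcdhgc4, which is known for the survival of interneurons, at 10.08. Next came Pcdh1, an unclustered delta gene, at 9.78, the C-type genes Pcdhgc5 at 8.40 and Pcdhgc3 at 8.14, and Pcdh8, a delta gene that neuronal activity induces, at 7.74. The alpha gene with the highest level was the C-type gene Pcdhac2 at 6.82 and the beta gene Pcdhb9 at 6.78. The lowest were Pcdh11x at 2.79 and Pcdha8 at 2.78, which do not differ beyond their SD of 0.531 and 0.470 over the 45 mice. The first and second positions were apart by less than the SD of 0.437 of Pcdhgc4 as well.

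**Figure D1:**
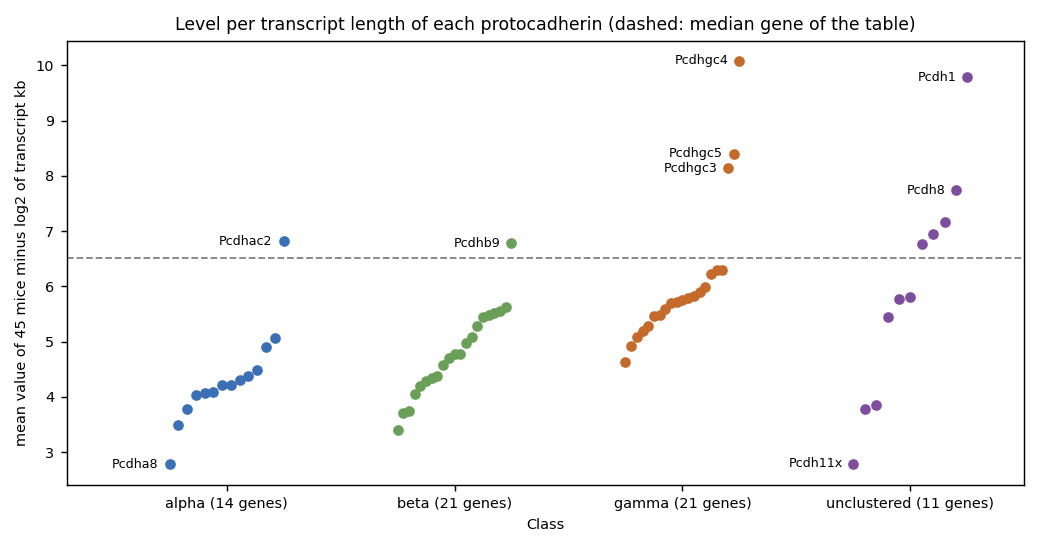
Mean value over 45 mice minus the log2 of transcript length in kb (vertical axis) for each of 67 protocadherins (points), by class (horizontal axis), with the median gene of the table at 6.52 as a dashed line. Pcdhgc4 at 10.08 is the highest point, and Pcdhac2 at 6.82 is the highest of the alpha class.

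The high place of Pcdhgc4 has a feature of annotation beside it that was noticed after the values were seen. Pcdhgc4 has 3 annotated transcripts, and 93.3% of the bases of a transcript of 2272 bases lie in the constant exons, so that only 153 bases are its own. Among the other members, over 60% of a transcript was constant for Pcdhgc5 (75.2% of 593 bases) and for Pcdha11 ENSMUSG00000102206 (67.2% of 625 bases). The part of these transcripts in the values was not tested.

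The study asked how a western diet acts on mice with and without amyloid and tau pathology, and the diet comparison over all genotypes set 24 TWD mice against 21 STD mice with genotype and batch in the fit. Of 67 protocadherins, 25 fell on TWD and 1, Pcdhgc4, rose, and 61 of the 67 differences were below zero. Over all genes tested, 13.4% fell and 16.0% rose, while 37.3% of the members fell. The median difference was -0.20 over the members and 0.00 over all genes. By class, 4 of 14 alpha genes (median -0.20), 4 of 21 beta genes (median -0.10), 10 of 21 gamma genes (median -0.28) and 7 of 11 unclustered genes (median -0.31) fell. At an unadjusted p below 0.05 there were 35 lower members and 1 higher, beside 7013 of the 15897 genes in either direction.

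**Figure D2:**
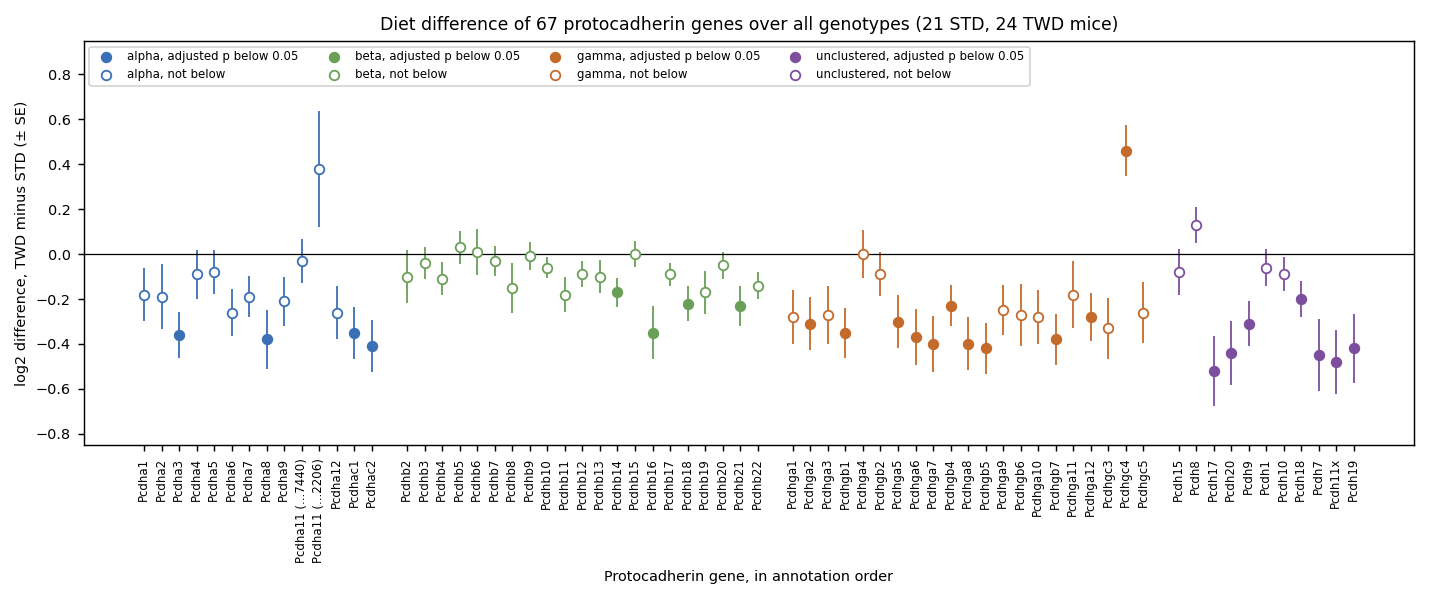
Log2 difference between TWD and STD mice over all genotypes with its SE (vertical axis) for each of 67 protocadherins by class (horizontal axis), coloured by class and filled where the adjusted p is below 0.05. Filled points lie between -0.52 for Pcdh17 and -0.17 for Pcdhb14, apart from Pcdhgc4 at 0.46.

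Transcript length moved with the diet difference across the whole table. The median difference was 0.13 in 3566 genes with a longest transcript of up to 2 kb, 0.03 in 6292 genes of 2 to 4 kb, -0.08 in 3608 genes of 4 to 6 kb, -0.15 in 1299 genes of 6 to 8 kb and -0.20 in 930 genes over 8 kb. Protocadherin transcripts are long: 44 members lie between 4 and 6 kb, where their median was -0.26 with 19 lower, and 7 are over 8 kb, where their median was -0.42 with 5 lower. Among all genes of those lengths, 20.8% and 37.3% fell. With the trend over length and GC content removed from each mouse, 12 members were called lower and 1 higher, beside 729 genes lower and 1399 higher in the whole table. The median of the gamma genes was then -0.29, that of the alpha genes -0.08, that of the beta genes 0.02 and that of the unclustered genes -0.07. Of the 13 members then called, 12 were also called without that step, and the other was Pcdhgc3 at -0.37. Of the unclustered genes only Pcdh17, at -0.28, was among the 13.

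Among the unclustered genes the lower members came from both delta groups. Pcdh17 (ENSMUSG00000035566), a delta protocadherin of presynaptic and growth cone membranes, had its lowest, median and highest values at 8.36, 9.57 and 10.39 on STD and at 8.14, 9.08 and 9.90 on TWD. The diets overlapped, and the difference was -0.52 ± 0.156 (adjusted p = 0.0179). By group, the median was 9.91 in AwTw/STD against 8.91 in AwTw/TWD, 9.59 against 9.36 in AwT+, 9.53 against 8.95 in A+Tw and 9.37 against 9.25 in A+T+ mice, so that the TWD group was the lower in each genotype.

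Pcdh20 (ENSMUSG00000050505) lay at 9.03, 9.87 and 10.45 on STD and at 8.02, 9.44 and 10.21 on TWD, a difference of -0.44 ± 0.143 (adjusted p = 0.0235). The lowest values were those of TWD mice. Pcdh11x, an X-linked delta gene, lay at 5.26, 6.32 and 6.97 against 4.88, 5.69 and 6.71, a difference of -0.48 ± 0.143 (adjusted p = 0.0187). Pcdh19, an X-linked delta gene linked to epilepsy in people, lay at 8.44, 9.39 and 10.29 against 7.65, 8.94 and 10.02 (-0.42 ± 0.155, adjusted p = 0.0370). Both X-linked genes were low in only some of the TWD mice, and with the nuisance score described below as a covariate Pcdh19 was at 0.03.

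Pcdh7, a delta gene whose tail binds protein phosphatase 1, fell by 0.45 ± 0.161 (adjusted p = 0.0353), with a median of 8.93 on STD and 8.53 on TWD. Pcdh9, a delta gene of cortical and hippocampal neurons, fell by 0.31 ± 0.0998 (adjusted p = 0.0238), with medians of 9.81 and 9.49. Pcdh18 fell by 0.20 ± 0.0782 (adjusted p = 0.0481), with medians of 6.35 and 6.16. This call held in 14 of the 45 fits that left out a mouse. The other 4 did not pass: Pcdh10, a delta gene that takes part in synapse elimination, at -0.09 ± 0.0753 (adjusted p = 0.376), Pcdh1 at -0.06 ± 0.0836 (adjusted p = 0.589), Pcdh15, a part of the tip link of hair cells, at -0.08 ± 0.101 (adjusted p = 0.548) and Pcdh8 at 0.13 ± 0.0787 (adjusted p = 0.201). Pcdh8 was thus the only unclustered gene with a positive difference, and no difference was shown for it.

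Promoter windows of RefSeq (GRCm38.p6), from 250 bases before to 50 bases after a start, were found for 9 of the 11 unclustered genes, with 2 windows for Pcdh9, and not for Pcdh1 and Pcdh11x. The first 3 below belong to genes that fell and the last to Pcdh10, which did not pass, so that the sequence at which each gene starts can be compared. Capitals mark CGCT on either strand (AGCG on the printed strand), the core letters of an element that promoters of clustered protocadherins share.
Pcdh17, chr14:84443313-84443612, plus strand: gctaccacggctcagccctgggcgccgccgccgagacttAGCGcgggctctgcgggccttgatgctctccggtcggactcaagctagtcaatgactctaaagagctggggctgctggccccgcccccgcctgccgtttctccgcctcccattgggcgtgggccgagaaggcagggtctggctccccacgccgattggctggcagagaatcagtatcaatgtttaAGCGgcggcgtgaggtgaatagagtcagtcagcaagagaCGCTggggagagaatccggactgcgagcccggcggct
Pcdh19, chrX:133688944-133689243, minus strand: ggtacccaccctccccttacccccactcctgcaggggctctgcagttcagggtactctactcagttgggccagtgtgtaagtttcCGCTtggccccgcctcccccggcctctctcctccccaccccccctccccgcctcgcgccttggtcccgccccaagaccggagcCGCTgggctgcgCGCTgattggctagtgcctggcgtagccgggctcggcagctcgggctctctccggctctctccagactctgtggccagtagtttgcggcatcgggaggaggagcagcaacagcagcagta
Pcdh20, chr14:88471347-88471646, minus strand: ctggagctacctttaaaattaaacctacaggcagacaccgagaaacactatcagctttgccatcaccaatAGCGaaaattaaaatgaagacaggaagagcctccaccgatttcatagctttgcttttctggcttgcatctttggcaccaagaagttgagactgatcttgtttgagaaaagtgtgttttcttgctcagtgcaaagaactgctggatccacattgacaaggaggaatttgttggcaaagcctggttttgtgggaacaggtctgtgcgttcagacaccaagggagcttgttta
Pcdh10, chr3:45378148-45378447, plus strand: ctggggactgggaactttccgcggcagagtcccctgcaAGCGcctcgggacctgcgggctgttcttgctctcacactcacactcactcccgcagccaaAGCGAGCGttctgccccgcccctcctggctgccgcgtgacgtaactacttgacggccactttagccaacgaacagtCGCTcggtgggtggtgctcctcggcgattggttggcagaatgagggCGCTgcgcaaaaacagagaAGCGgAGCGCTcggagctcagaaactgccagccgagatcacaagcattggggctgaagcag
The core occurs 3 times in the window of Pcdh17, 3 times in that of Pcdh19, 1 time in that of Pcdh20 and 8 times in that of Pcdh10, with overlapping matches counted separately. In the windows not printed, the core occurs 7 times for Pcdh18, 3 for Pcdh7 and 2 in each of Pcdh9, genes that fell. It occurs 5 times for Pcdh8 and 4 for Pcdh15, which did not pass. It is short and common: 61.8% of 32851 promoter windows of all genes hold it, and all 10 windows of the unclustered protocadherins do. The GC content is 65% for Pcdh17, 67.7% for Pcdh19, 43.7% for Pcdh20 and 62.3% for Pcdh10, against a median of 52.7% over all windows. Genes with a rich and with a poor promoter in GC were therefore both among those that fell, and these letters were not tested against the diet difference.

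In the alpha cluster, the 2 C-type genes both fell. Pcdhac2 (ENSMUSG00000102697), which spaces serotonergic axons, lay at 8.99, 9.60 and 10.21 on STD and at 8.14, 9.31 and 9.89 on TWD, a difference of -0.41 ± 0.117 (adjusted p = 0.0169). Its group medians were 9.76 against 9.26 in AwTw, 9.63 against 9.49 in AwT+, 9.60 against 9.11 in A+Tw and 9.47 against 9.13 in A+T+ mice, lower on TWD each time. Pcdhac1 lay at 5.35, 6.67 and 7.23 against 5.43, 6.35 and 6.80, a difference of -0.35 ± 0.115 (adjusted p = 0.0259).

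Of the other 12 alpha genes, 2 fell: Pcdha3 by 0.36 ± 0.102 (adjusted p = 0.0159) and Pcdha8, the protocadherin with the lowest value, by 0.38 ± 0.133 (adjusted p = 0.0317). Their medians were 6.80 against 6.46 and 5.43 against 5.16. Several mice, most of them on TWD, shared the lowest Pcdha8 value of their batch, 4.27 in batch 1 and 4.41 in batch 0. The Pcdha8 difference therefore rests in part on repeated values at the low end of the scale. Pcdha11 ENSMUSG00000102206 had a positive difference of 0.38 ± 0.259 that did not pass (adjusted p = 0.257) and the widest residual spread of the members, with an SD of 0.835. It was singled out after its values were seen. The other gene of that symbol, ENSMUSG00000007440, differed by -0.03 ± 0.0969 (adjusted p = 0.854).

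Beta genes had the smallest median difference of the 3 clusters, and single genes lay between -0.35 and 0.03. Pcdhb16 fell by 0.35 ± 0.118 (adjusted p = 0.0282), with medians of 6.72 on STD and 6.29 on TWD, Pcdhb18 by 0.22 ± 0.0789 (adjusted p = 0.0321), Pcdhb21 by 0.23 ± 0.0878 (adjusted p = 0.0432) and Pcdhb14 by 0.17 ± 0.0647 (adjusted p = 0.0464). All 4 transcripts are longer than 4 kb, and with the length and GC trend removed none of the 4 was called, with Pcdhb16 at -0.11, Pcdhb21 at 0.00, Pcdhb18 at 0.03 and Pcdhb14 at 0.20. Pcdhb9, the beta gene with the highest level, lay at 8.07, 8.45 and 8.63 on STD and at 7.81, 8.41 and 8.69 on TWD, a difference of -0.01 ± 0.0626 (adjusted p = 0.933).

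The gamma cluster held the most genes that fell, 6 of 12 A-type and 4 of 6 B-type genes, with medians of -0.28 and -0.31. Pcdhgb5 (ENSMUSG00000103749) lay at 6.74, 7.45 and 7.74 on STD and at 5.86, 7.01 and 7.70 on TWD, a difference of -0.42 ± 0.115 (adjusted p = 0.0158). Its group medians were 7.60 against 7.13 in AwTw, 7.49 against 7.01 in AwT+, 7.40 against 6.95 in A+Tw and 7.25 against 7.16 in A+T+ mice. Pcdhga8, Pcdhga7 and Pcdhgb7 fell by 0.40 ± 0.118 (adjusted p = 0.0172), 0.40 ± 0.123 (adjusted p = 0.0196) and 0.38 ± 0.112 (adjusted p = 0.0176). These genes differ in their variable exons and share the constant ones, so their values are not independent measurements.

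The 3 gamma C-type genes did not move together. Pcdhgc4 (ENSMUSG00000023036) lay at 11.54, 12.14 and 13.01 on STD and at 12.06, 12.58 and 13.28 on TWD, a difference of 0.46 ± 0.113 (adjusted p = 0.0157). Its median was higher on TWD in each genotype, at 11.95 against 12.75 in AwTw, 12.17 against 12.57 in AwT+, 12.13 against 12.70 in A+Tw and 12.32 against 12.54 in A+T+ mice. Pcdhgc4 is also the gene with a transcript that is 93.3% constant. The part of reads from shared exons in its rise was not tested. Pcdhgc3, which promotes dendrite branching through Axin1, differed by -0.33 ± 0.136 (adjusted p = 0.0627) and Pcdhgc5, which binds GABA-A receptors, by -0.26 ± 0.136 (adjusted p = 0.137), and neither passed.

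**Figure D3:**
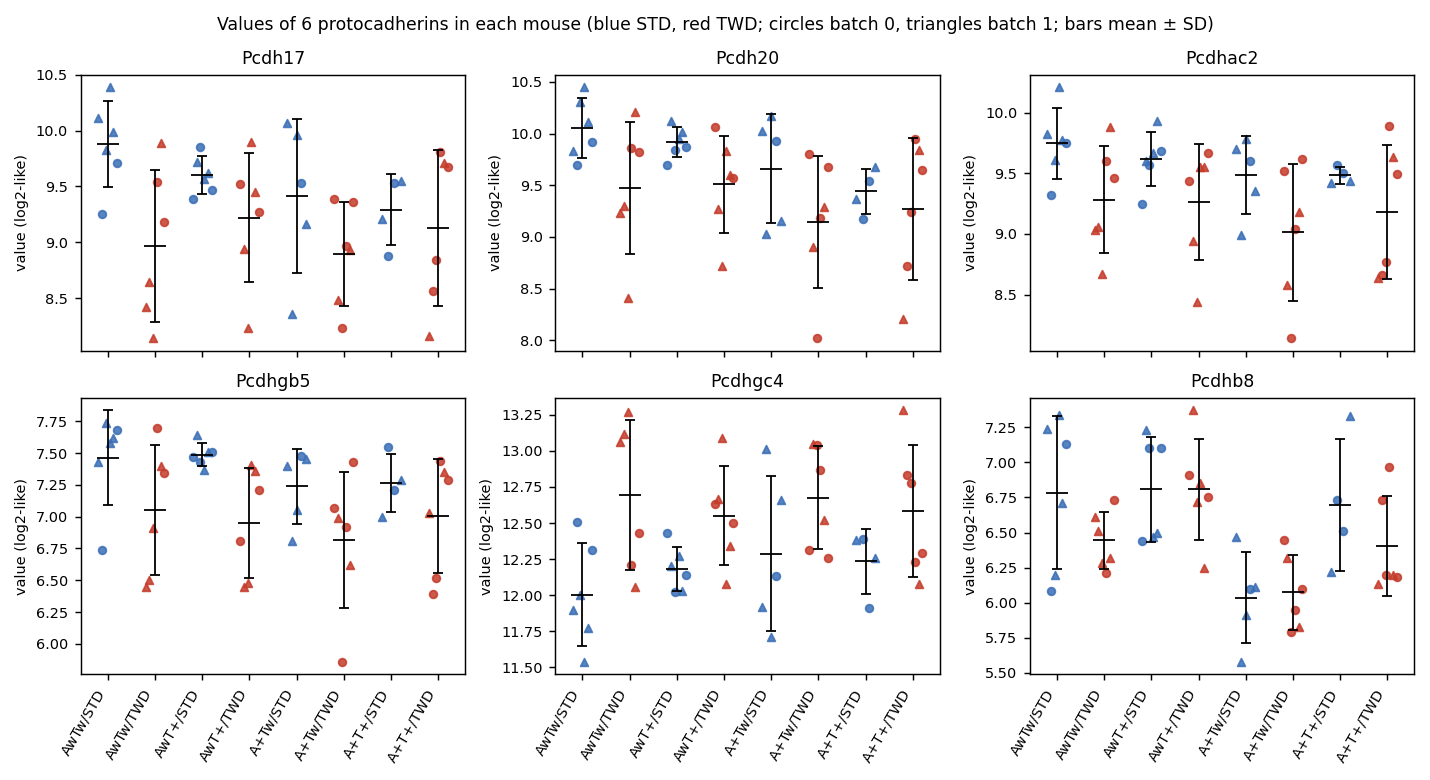
Deposited values (vertical axis, log2-like) of Pcdh17, Pcdh20, Pcdhac2, Pcdhgb5, Pcdhgc4 and Pcdhb8 in each mouse by group (horizontal axis), STD in blue and TWD in red, circles for batch 0 and triangles for batch 1, with the mean ± SD. Pcdh17 has its lowest group median, 8.91, in AwTw/TWD and its highest, 9.91, in AwTw/STD, and Pcdhb8 is low in the A+Tw groups with medians of 6.10 and 6.03.

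The diet comparison was also made within each batch, and the difference between the batches was not tested. In the 13 STD and 12 TWD mice of batch 1 alone, 25 members fell and 2 rose, beside 3272 lower and 3226 higher genes in the whole table. The 2 that rose were Pcdhgc4 by 0.63 ± 0.176 and Pcdha11 ENSMUSG00000102206 by 0.96 ± 0.285 (adjusted p = 0.0176 and 0.0181). Both are among the genes named above with a mostly constant transcript, whose part in these values was not tested. In the 8 STD and 12 TWD mice of batch 0 alone, limma called 0 members and 0 genes of the table, with 3 members and 882 genes at an unadjusted p below 0.05. Pcdh17 differed by -0.17 ± 0.185 in batch 0 and -0.80 ± 0.234 in batch 1, Pcdhgb5 by -0.32 ± 0.209 and -0.50 ± 0.138, and Pcdhgc4 by 0.29 ± 0.128 and 0.63 ± 0.176. The median over the members was -0.14 in batch 0 and -0.26 in batch 1.

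A further measure that moved with diet was a nuisance score, the projection of each mouse's values on the first component of the residuals, which holds 41.3% of the variance left after group and batch. It averaged -0.45 ± 0.845 (SD) on STD and 0.39 ± 0.972 on TWD. The projected values still hold the diet difference and include the protocadherins, so a fit with this score can also remove part of a diet difference. With this score as a covariate limma called 0 members and 0 genes of the table for diet, with 8 members and 1281 genes at an unadjusted p below 0.05, and the member median was -0.09. Pcdhgb5 was then at -0.28 ± 0.117 (adjusted p = 0.587), Pcdh17 at -0.09 ± 0.0752 (adjusted p = 0.729) and Pcdhgc4 at 0.16 ± 0.0603 (adjusted p = 0.587). With the choroid plexus score as a covariate the diet difference was as large, with 32 members lower, 1 higher and a median of -0.22, beside 2501 lower and 2800 higher genes in the whole table.

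**Figure D4:**
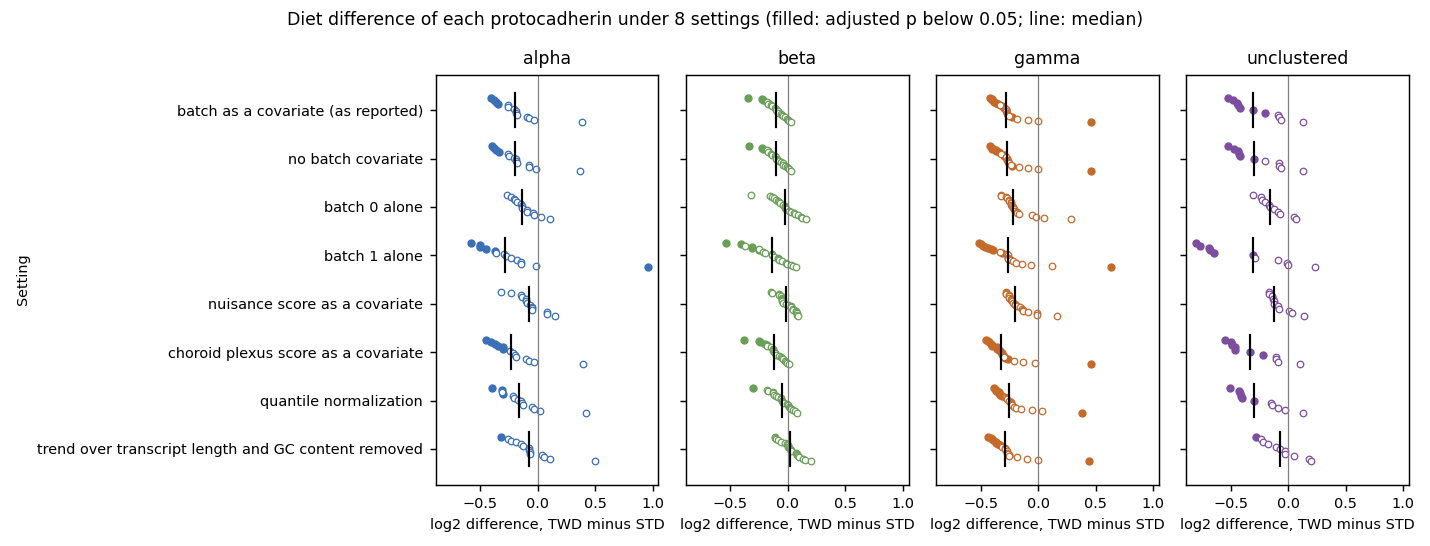
Log2 difference between TWD and STD (horizontal axis) of the protocadherins of each class (panels) under 8 settings (vertical axis), filled where the adjusted p is below 0.05, with the class median as a line. No point is filled with the nuisance score in the fit or in batch 0 alone, and the gamma median stays at -0.29 with the length and GC trend removed.

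Within mice of the same group, protocadherins also varied together. After group and batch were removed, the median Pearson r over the 45 mice was 0.74 for 210 pairs of gamma genes, 0.41 for 55 pairs of unclustered genes, 0.31 for 210 pairs of beta genes and 0.25 for 91 pairs of alpha genes. Between classes it was 0.50 for gamma with unclustered, 0.37 for beta with gamma, 0.34 for alpha with gamma and 0.28 for alpha with beta genes. These points share their libraries, and gamma genes also share constant exons. The first component of the residuals holds 41.3% of the variance left over all genes of the table. The r values were not compared with those of genes outside the family. The highest value was 0.93, for Pcdhgc3 with Pcdhgc5, and Pcdh17 and Pcdh20, which share no exon, reached 0.91.

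Pcdhgc4 went the other way. Its r was below zero with 60 of the 66 other members and reached -0.94 with Pcdh17, -0.89 with Pcdh11x and -0.86 with Pcdhac2, while with its neighbours Pcdhgc3 and Pcdhgc5 it was -0.46 and -0.35. Mice with a high Pcdhgc4 value for their group thus tended to have low values of most other protocadherins, with the mice of both diets pooled. How many genes outside the family vary against the protocadherins in this way was not examined. The part of the mostly constant transcript of Pcdhgc4 in its r values was not tested either. Pcdh8 was among the few genes with a positive r, at 0.36.

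**Figure D5:**
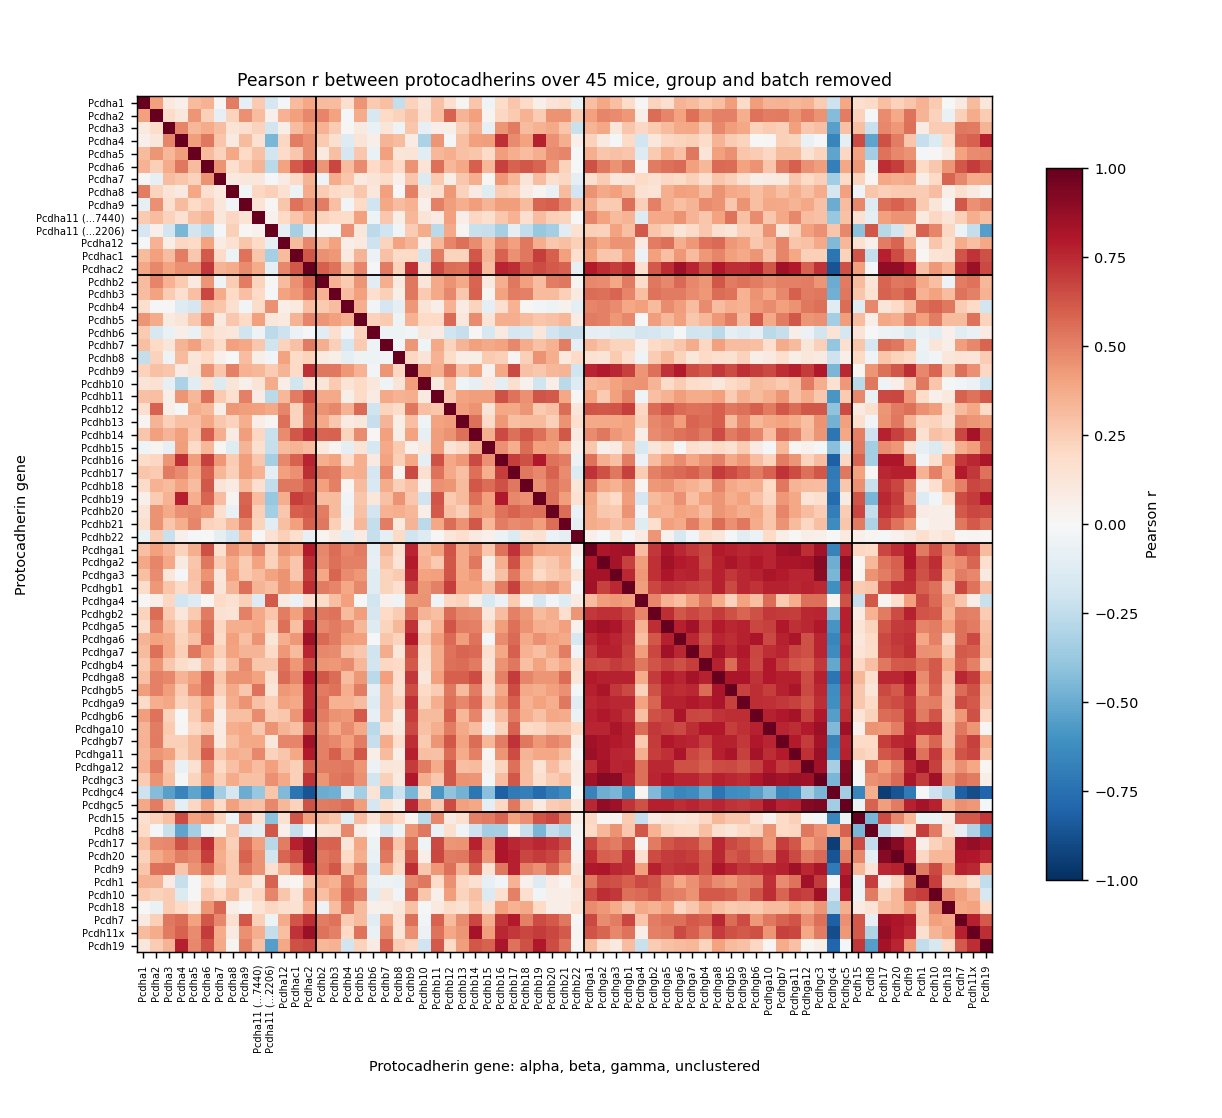
Pearson r (colour) between each pair of 67 protocadherins over 45 mice after group and batch were removed, with black lines between the alpha, beta, gamma and unclustered classes (both axes). The gamma block stands out with a median of 0.74, and Pcdhgc4 forms a blue line that reaches -0.94 with Pcdh17.

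The spread between mice of a group was wider on TWD. The median residual SD of the members was 0.276 on STD and 0.402 on TWD, and it was the larger on TWD for 60 of 67 members and all 21 gamma genes. Over the whole table the medians were 0.238 and 0.273, and 71.8% of genes had the larger SD on TWD. The mean of the gamma genes in A+Tw/TWD replicate 3 was 7.01, the lowest of all mice, with A+T+/TWD replicate 2 next at 7.63. All members share each mouse, so their spreads are not independent. The difference in spread was not tested, and it was not examined without that mouse.

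Within single genotypes, the diet comparison in the 12 AwTw mice called 5 members. The 4 lower ones, against 3.34% of the table, were Pcdh17 (-0.91 ± 0.299), Pcdh19 (-0.88 ± 0.293), Pcdha8 (-0.77 ± 0.244) and Pcdha5 (-0.52 ± 0.170), and the higher one, against 6.01% of the table, was Pcdhgc4 (0.69 ± 0.220), each with an adjusted p of 0.0498, just inside the threshold. Pcdha8 lay at 5.43, 5.57 and 5.81 in AwTw/STD and at 4.27, 4.80 and 5.55 in AwTw/TWD mice. AwTw/TWD replicates 1 and 2 lay at 4.27 and replicate 4 at 4.41, the repeated lowest Pcdha8 values of their batches given above. Pcdh19 lay at 9.22, 9.73 and 10.29 against 7.93, 8.72 and 9.91. In batch 1 alone limma called 9 members and in batch 0 alone 0, where 0 members were also below 0.05 unadjusted, beside 206 genes of the table. The 9 members of batch 1 stood beside 25% of the table called in either direction, so that the members were called no more often than genes at large. The calls were also lost with the nuisance score, with the letters that begin the mouse names as a covariate, with quantile normalization, with the length and GC trend removed, without a mean trend and in a fit of these groups only, and in 32 of the 45 fits that left out a mouse. With the name letters, without a mean trend and with only these groups fitted, the member median stayed at -0.23, and at most 1 gene of the table was called.

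In the other 3 genotypes (A+Tw, AwT+ and A+T+), limma called 0 members for diet, and 0% of the table in each genotype. At an unadjusted p below 0.05 there were 9 members in A+Tw, 3 in AwT+ and 3 in A+T+ mice, beside 705, 1183 and 409 genes of the table. The member medians were -0.23, -0.21 and -0.16, beside -0.23 in AwTw mice. In the same order Pcdh17 differed by -0.57 ± 0.323, -0.37 ± 0.300 and -0.19 ± 0.336 and Pcdhgb5 by -0.45 ± 0.245, -0.52 ± 0.228 and -0.27 ± 0.254. Whether the diet difference of AwTw mice differed from the mean of the other genotypes was tested as a contrast of its own, which limma called for 0 members and 0% of the table, with 1 member, Pcdha5, at an unadjusted p below 0.05 (-0.63 ± 0.199, adjusted p = 0.557).

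Genotype was compared on each diet against the AwTw mice of that diet, which the 3 comparisons share. On STD, limma called 0 members for AwT+ (0% of the table), 0 for A+Tw (0.925% of the table) and 0 for A+T+ mice (1.32%). At an unadjusted p below 0.05 there were 1, 3 and 6 members, beside 380, 899 and 2278 of the 15897 genes. On TWD limma called 0 members for AwT+ (0%), 0 for A+Tw (0.824%) and 0 for A+T+ mice (0.730%). Unadjusted there were 1, 2 and 3 members, beside 484, 827 and 1234 genes. The member medians were -0.04, -0.15 and -0.14 on STD and 0.03, -0.20 and -0.07 on TWD. Pcdha5 in A+T+ (-0.63 ± 0.190, adjusted p = 0.102) and Pcdhb8 in A+Tw mice on STD (-0.75 ± 0.223, adjusted p = 0.147) had the smallest adjusted p.

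With all 21 A+ mice set against all 24 Aw mice, 1 member fell and 0 rose, where 0.679% of the table fell and 3.10% rose. This was Pcdhb8 (ENSMUSG00000045876), with lowest, median and highest values of 5.58, 6.20 and 7.33 in A+ and 6.08, 6.72 and 7.37 in Aw mice, a difference of -0.42 ± 0.111 (adjusted p = 0.0157). The values overlapped. Its group medians on STD and TWD were 6.92 and 6.42 for AwTw, 6.80 and 6.80 for AwT+, 6.62 and 6.20 for A+T+ and 6.10 and 6.03 for A+Tw mice. Each batch alone gave the same sign without a call (-0.35 ± 0.147 in batch 0 and -0.51 ± 0.166 in batch 1). Of the 67 members 60 had a negative difference, with a median of -0.14 beside -0.02 over all genes, and 10 were lower at an unadjusted p below 0.05, beside 2422 genes in either direction in the whole table. The 8 choroid plexus markers had a median difference of 0.86 between these mice, of which limma called 0 and 5 were below 0.05 unadjusted. With the choroid plexus score as a covariate Pcdhb8 was at -0.42 ± 0.119 (adjusted p = 0.0358) and the member median at -0.09.

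Among 12 tested genes that organize or silence the clusters, 2 fell and 1 rose on TWD over all genotypes. Over all genes tested, 13.4% fell and 16.0% rose. Nipbl, which loads cohesin, fell by 0.45 ± 0.170 (adjusted p = 0.0422) and the cohesin subunit Rad21 by 0.22 ± 0.0749 (adjusted p = 0.0275), and the DNA methyltransferase Dnmt1 rose by 0.13 ± 0.0497 (adjusted p = 0.0426). The median of the list was -0.16.

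Of 18 partners and effectors of protocadherins, 6 fell and 2 rose, beside 13.4% and 16.0% of all genes, with a median of -0.08. The synaptic adhesion molecule Nlgn1 fell by 0.54 ± 0.130 (adjusted p = 0.0157), Adam10, which sheds protocadherin ectodomains, by 0.42 ± 0.125 (adjusted p = 0.0176) and Cyfip1, a subunit of the WAVE complex that protocadherin tails bind, by 0.26 ± 0.0774 (adjusted p = 0.0189). Brk1, a small subunit of the same complex, rose by 0.19 ± 0.0559 (adjusted p = 0.0175). Of the other WAVE subunits in the list, Nckap1 fell by 0.60 ± 0.188 (adjusted p = 0.0212) and Abi2 by 0.37 ± 0.124 (adjusted p = 0.0276). Cyfip2 fell by 0.19 ± 0.0676 (adjusted p = 0.0325), while Wasf1 (0.13 ± 0.0586) and Abi1 (-0.12 ± 0.0671) did not pass. Brk1 was thus the only WAVE subunit called higher.

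Of 27 other cadherin genes, 9 fell and 1 rose, beside 13.4% and 16.0% of all genes, with a median of -0.13. Dchs2 fell by 0.34 ± 0.0741 (adjusted p = 0.0157), Cdh11 by 0.30 ± 0.0895 (adjusted p = 0.0187) and Cdh10 by 0.23 ± 0.0715 (adjusted p = 0.0200), and the calsyntenin Clstn3 rose by 0.21 ± 0.0665 (adjusted p = 0.0217). Between A+ and Aw mice limma called 0 genes of these 3 lists. At an unadjusted p below 0.05 there were 0, 5 and 10 genes, beside 2422 of the 15897 in the whole table.

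Markers of cell types moved in both directions with diet, as did all genes tested (13.4% lower and 16.0% higher). Among neuron markers 3 fell and 2 rose of 8, among astrocyte markers 3 fell and 1 rose of 6, among oligodendrocyte and precursor markers 1 fell and 2 rose of 6, among microglia markers 1 fell and 2 rose of 6, and among endothelial and pericyte markers 1 fell of 6. Of the subfield, choroid plexus and meningeal and fibroblast markers limma called 0. At an unadjusted p below 0.05 the counts of these 3 lists were 2, 1 and 1, beside 7013 of the 15897 genes. The medians of the list differences were 0.02 for neuron, -0.27 for astrocyte and -0.51 for choroid plexus markers. The mean neuron marker level per mouse ran from 12.70 to 13.12 on STD and from 12.32 to 13.10 on TWD. The part of these markers in the protocadherin differences was not tested, apart from the choroid plexus score above.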

How the data were processed

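Hippocampal RNA of 45 mice was sequenced as stranded poly(A) libraries in single 50-base reads. Per the paper's methods and the submitters' processing notes, reads were trimmed with Trimmomatic 0.38, cleared of ribosomal and mitochondrial reads with Bowtie2 2.2.3 and quantified with kallisto 0.44.0 (mm10). The authors kept genes with a mean count over 10, applied the variance-stabilizing transformation of DESeq2 1.22.2 and removed the batch effect with limma 3.38.3. These deposited values have a log2-like scale and hold no read counts, so the depth behind each value is unknown, the number of mice sets the precision, and no counting interval is given. The batch means of the deposited values were equal for each of the 15897 genes, and batch was kept as a covariate in each fit.

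Protocadherins were taken by symbol from the GENCODE M21 annotation (GRCm38), which named 15695 of the genes and gave coordinates, transcript lengths and GC content. Promoters came from RefSeq. All comparisons used limma 3.58.1 in R 4.3.3 with a mean trend, two-sided, adjusted over all genes, after the step was tested on simulated data. The comparisons over all genotypes used an additive fit with batch, and those of single groups a fit of 8 groups and batch. Correlations were computed in R, and figures were made in Python 3.11.15 with pandas 2.3.3 and matplotlib 3.10.9.

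The members, gene lists and tests were chosen with earlier results of these data known. Named genes were all unclustered members, the C-type members, the member with the highest mean of each cluster, up to 5 called members of each cluster or other comparison, and up to 4 called genes of each list. The other WAVE subunits were named after their values were seen. One gene of the list of cluster regulators is not reported here. Alternatives left out batch, took each batch alone, added a nuisance score, a choroid plexus score or the prefix of the mouse labels, used quantile normalization, removed the trend over length and GC content, dropped genes under the 25th percentile, dropped the mean trend, fitted only the groups compared, counted 157 genes with copied values once, or left out each mouse.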

Additional observations from a re-analysis of the deposited data

Results flagged for a closer look

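The values of the 4 class means and of 6 members were examined for a mouse far from the others of its group by Dixon's ratio, which was possible in 80 sets, and 2 stood apart. Chance alone gives about 1 in 20. Pcdhgb5 was lowest in AwTw/STD replicate 2, at 6.74, where the nearest of the other 5 mice lay at 7.43, a gap of 0.69 of the range, above the critical ratio for 6 mice. The mean of the gamma genes was lowest in A+Tw/STD replicate 2, at 8.07, where the nearest mouse lay at 8.41, a gap of 0.791 of the range, above the critical ratio for 5 mice. Both mice were on STD, and both values were low. A+Tw/TWD replicate 3, with the lowest gamma mean of all mice (7.01), did not pass the critical ratio of its group.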

How the results depend on the processing

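The number of protocadherins called for diet over all genotypes, 26, became 0 in batch 0 alone, 0 with the nuisance score and 13 with the length and GC trend removed (12 of them among the 26), and was 14 to 33 when a mouse was left out, with 17, 17 and 14 without AwTw/TWD replicates 1, 2 and 3, 16 without AwT+/TWD replicate 3, 16 without AwTw/STD replicate 4 and 17 without A+Tw/STD replicate 3. Of the 26, 13 were called in all 45 of these fits. Among the named genes, Pcdh18 was called in 14 fits, Pcdhb14 in 21, Pcdhb21 in 24, Pcdh19 in 32 and Pcdh7 in 34. Pcdhb18, Pcdha8, Pcdhac1 and Pcdhb16 were called in 40, 41, 43 and 44. Without AwTw/TWD replicate 3 (14 members) 17.4% of the table was called, and without AwTw/STD replicate 2 (33 members) 32.8%. The 5 called in AwTw mice became 0 in batch 0 alone, with the nuisance score, with the label prefix, with quantile normalization, with the length and GC trend removed, without a mean trend and with only the groups compared, 9 in batch 1 alone, and 0 to 14 when a mouse was left out, with 10 and 8 without AwTw/STD replicates 2 and 6, 9 and 14 without AwTw/TWD replicates 4 and 5, and 0 in 32 of the 45 fits. Without those AwTw mice, in the same order, 28.9%, 32.6%, 22.4% and 38.2% of the table were called. In the 32 fits, 0 genes of the table were called. For genotype on TWD the count became 1 with the nuisance score, Pcdha4 in A+T+ mice (-0.65, adjusted p = 0.00984). For genotype on STD it was 0 to 1 when a mouse was left out, Pcdhb8 in A+Tw mice without AwTw/STD replicate 2 (-0.89, adjusted p = 0.0286) and Pcdha5 in A+T+ mice without AwTw/TWD replicate 5 (-0.63, adjusted p = 0.0436). Between A+ and Aw mice the count of 1 became 0 in batch 0 alone and 0 above the 25th percentile, where Pcdhb8 was not tested, and was 1 to 2 when a mouse was left out, Pcdh9 being added without A+T+/TWD replicate 5 (-0.34, adjusted p = 0.0327). In batch 1 alone the 1 call was Pcdh15 (-0.48, adjusted p = 0.0484). Over all 67 members, the 61 negative diet differences became 53 in batch 0 alone, 50 with the nuisance score and 46 with the length and GC trend removed. Among the named members, the sign turned for Pcdh15 in batch 0 alone (0.07), with the nuisance score (0.14) and with the length and GC trend removed (0.18), and for Pcdhb9 at 0.03, 0.04 and 0.02 in the same settings, at 0.03 with quantile normalization and between -0.03 and 0.02 when a mouse was left out. It also turned for Pcdh19 (0.03) and Pcdha5 (0.08) with the nuisance score, and for Pcdh10 (0.20), Pcdhb18 (0.03), Pcdhb14 (0.20) and Pcdha5 (0.05) with the length and GC trend removed. The cause was not tested. The medians by diet stayed below zero when a mouse was left out, between -0.22 and -0.18 for clustered and between -0.34 and -0.26 for unclustered genes. The deposited values carry no depth, so no limit from depth can be stated. No paired analysis was possible because the labels give no replicate numbers that groups share.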
